A study of Mus musculus with 12 samples.

Results

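The 2 single knockouts (KO) of a study of DNA helicases in primary mouse embryonic fibroblasts were set directly against each other, Recql KO over Blm KO. The members are the 6 libraries whose labels carry these genotypes, 3 of Recql KO and 3 of Blm KO, out of 12 in the series. They were compared over the 14876 genes that passed a filter on low counts, of 24054 in the table. Recql KO libraries are labelled Recql -/- and Blm KO libraries Blm -/-. The other 6 libraries are labelled as carrying both deletions (double KO, 3 libraries) or neither (wild type, WT, 3 libraries). Those 6 entered the low-count filter, the scaling and the estimate of the spread between libraries, but not the contrast. Embryonic fibroblasts are a mixed culture of connective tissue cells grown out of whole embryos, here kept at low oxygen, and polyadenylated RNA was sequenced. Neither the strain, the embryo, its sex and age, the passage nor the allele of each deletion is given in the labels. Nothing states that replicates stem from different embryos or cultures, so each p-value reflects only how these libraries vary.

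BLM and RECQL1 are members of the RecQ family, helicases that unwind DNA. BLM works with topoisomerase III alpha and RMI proteins to take apart recombination intermediates, and its loss causes Bloom syndrome in humans, with a high rate of exchange between sister chromatids. RECQL1, the protein made from Recql, restarts stalled and reversed replication forks. The series is about cells without both helicases, and the direct comparison of the single knockouts asks where their transcriptomes part.

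Levels below are in CPM, counts divided by library size and adjusted between libraries by the trimmed mean of M values, and are never compared between genes. Differences are log2 fold changes of Recql KO over Blm KO with the standard error (SE) of the model, so that a positive value means a higher level in Recql KO. A gene was called when its adjusted p in edgeR's quasi-likelihood test was under 0.05, and rose or fell is used only of called genes. The libraries held 47758552 to 57112937 expected counts in Recql KO and 57431884 to 59296354 in Blm KO. Transcripts of 4 Y-linked genes summed to 283, 28.7 and 0.676 CPM in Recql KO replicates 1, 2 and 3 and to 247, 1.39 and 3.44 CPM in Blm KO. Xist, made from the inactive X chromosome, stood at 0.111, 310 and 455 CPM in Recql KO and at 11.7, 370 and 473 CPM in Blm KO. Both groups therefore mix libraries of both kinds, and Recql KO replicate 2 holds both transcripts. Results within the pair high in Y-linked transcripts (Recql KO replicate 1 and Blm KO replicate 1) and within the libraries low in them (Recql KO replicate 3 against Blm KO replicates 2 and 3) are given beside the main lists.

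Blm was lower in the libraries that lack it. Blm (mm10 chromosome 7, 80454993 to 80535148) stood at 14.3, 16.4 and 16.1 CPM in Recql KO, against 5.64, 3.18 and 3.58 CPM in Blm KO. The groups did not overlap, and the log2 fold change was 1.91 ± 0.24 (adjusted p = 0.000302, edgeR). Recql (chromosome 6, 142350342 to 142387100) stood at 21.7, 24.3 and 29.8 CPM in the libraries labelled Recql KO, against 21.3, 24.1 and 21.9 CPM in Blm KO. These values overlapped, with a log2 fold change of 0.17 ± 0.20 (adjusted p = 0.519, edgeR). Recql RNA was thus not lowered in the libraries labelled Recql KO, so the Recql genotype of each side rests on the labels, while the Blm level goes with them. It stood at 18.7, 35.6 and 24.7 CPM in the libraries labelled double KO, against a mean of 27.7 CPM in WT, and was not uniformly lower there either. The reason was not tested.

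The naming rule is given with the processing. Ifit1, Il1rn, Dcn, Mki67, Top2a, Pdgfra, Hoxd12, Hoxd13 and other called Hox genes beyond its first 6 were chosen after their values were seen, as were the genes named for not being called. The difference between the single knockouts reached a large share of the transcriptome. Of 14876 genes, 5985 were called (40.2%), 2875 higher (19.3%) and 3110 lower (20.9%) in Recql KO. Counts of called members in the lists below are to be read against these shares. The median fold among called genes was 1.69 for those that rose and 1.59 for those that fell, and 2193 called genes (14.7%) were past 2-fold. Of these, 1150 rose (7.73%) and 1043 fell (7.01%), while past 4-fold 530 rose (3.56%) and 427 fell (2.87%). The median log2 fold change over all genes was -0.02. The 3 libraries of one genotype lay entirely above or below those of the other for 8505 genes (57.2%), including 5864 of the called genes. Separation of the libraries of a named gene therefore adds little to its call. The first principal component of the 6 libraries held 72.8% of the variance and placed the Recql KO libraries between 57.5 and 63.6 and the Blm KO libraries between -69.9 and -48.0. Within the Y-high pair 1405 genes were called, and within the Y-low libraries 590, with fewer libraries in each fit. The Y-high contrast is 1 library against 1, with its spread estimated from the 3 WT libraries alone, and the Y-low contrast has 1 Recql KO library, with its spread from 2 Blm KO and 2 double KO libraries. Calls within these splits therefore have no replicate check on the Recql KO side and are given as a description.

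**Figure D1:**
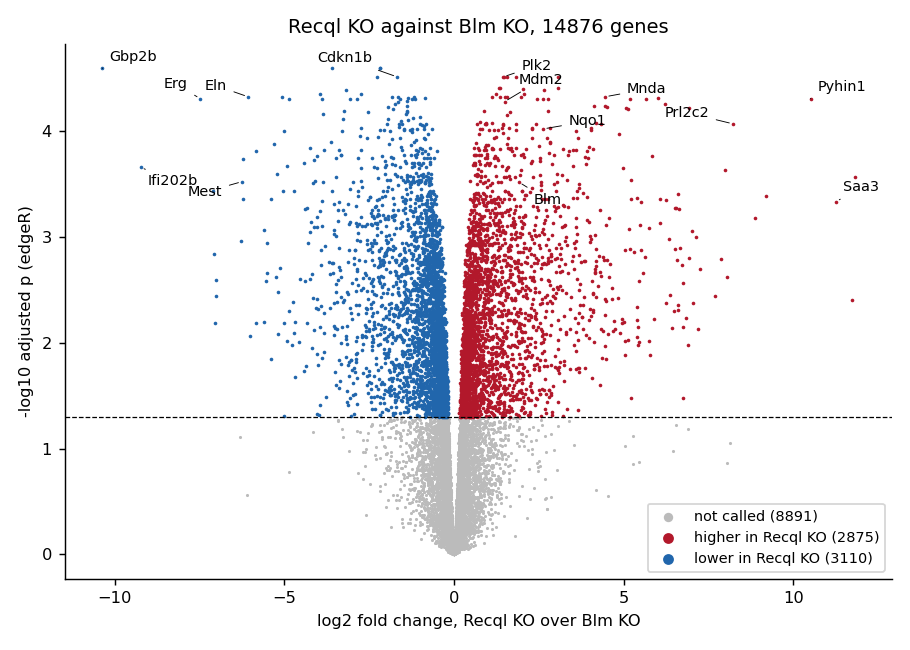
Log2 fold change of Recql KO over Blm KO (x axis) against -log10 of edgeR's adjusted p (y axis) for 14876 genes, 1 point per gene, with the dashed line at an adjusted p of 0.05. The 2875 genes higher in Recql KO (red) and 3110 lower (blue) lie on both sides, with Pyhin1 and Saa3 among the points furthest right and Gbp2b furthest left.

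The 12 highest and 12 lowest genes by the naming rule showed contrasting kinds of product. Saa3, an acute-phase serum amyloid (chromosome 7, 46711998 to 46719615), stood at 104, 54.2 and 69.4 CPM in Recql KO, against 0.0339, 0 and 0.0511 CPM in Blm KO, where the 3 libraries held 5 counts in all. Pyhin1, a DNA-binding protein of the interferon-inducible Ifi200 cluster (chromosome 1, 173630859 to 173647928), had 4591 counts in Recql KO and 3 in Blm KO. Scaled for depth, this was a ratio of 1661, with a counting interval of 568 to 8056. Klra18, of the Ly49 receptor family, was at least 476-fold higher in Recql KO, with 1315 counts against 0, and H2-Q8, an MHC class I gene, at least 441-fold, with 1218 counts against 0 (bounds against 3 counts over the group, for counting error only). Both have near-identical relatives between which the counting could split reads. The rest of the highest set included the inducible nitric oxide synthase Nos2 and the iron-binding lipocalin Lcn2, and the proliferins Prl2c2 and Prl2c3, placental prolactin relatives that cultured fibroblasts can make. Prl2c2 stood at 33.0, 75.5 and 114 CPM in Recql KO, against 0.102, 0.299 and 0.341 CPM in Blm KO (log2 fold change 8.22 ± 0.77, adjusted p = 8.48e-05, edgeR). Reads of the proliferins can also be shared between copies.

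At the other end, Gbp2b, a guanylate-binding protein, had 1 count in Recql KO and 1937 in Blm KO, so that the ratio of Blm KO over Recql KO was 1785, with a counting interval of 320 to 70538. Ifi202b, another Ifi200 gene, stood at 0.0371, 0.120 and 0.0819 CPM in Recql KO, against 69.6, 32.6 and 46.9 CPM in Blm KO. Both directions of the Ifi200 and guanylate-binding families are thus among the extremes. The remaining genes at the low end were mostly of matrix, cartilage and imprinted loci. Eln, which encodes elastin (chromosome 5, 134702595 to 134747368), stood at 0.945, 1.34 and 3.26 CPM in Recql KO, against 130, 81.4 and 157 CPM in Blm KO, a log2 fold change of -6.07 ± 0.48 (adjusted p = 4.70e-05, edgeR). Erg, an ETS transcription factor of endothelium and cartilage, stood at 0.0556, 0.103 and 0.287 CPM in Recql KO, against 38.0, 11.9 and 28.4 CPM in Blm KO. The genotypes did not overlap for any of these genes, which the naming rule required.

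Interferon-stimulated genes were higher in Recql KO almost without exception. Type I interferons act through interferon-stimulated response elements in promoters and switch on genes that block viral replication. Of 41 members tested, 38 rose in Recql KO and 0 fell, where 19.3% of all genes rose, and the median log2 fold change was 3.54. Their summed level was 2280, 2576 and 2957 CPM in Recql KO, against 513, 517 and 474 CPM in Blm KO. No Blm KO library came near the Recql KO range.

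Promoter windows are shown for Rsad2, Oas3 and Ifit1, chosen because each holds a match to the response element that interferon signalling uses. These windows therefore do not stand for all members described next. They are the 150 bases before the annotated start in RefSeq, build GRCm38.p6, 5′ to 3′ along the gene, with matches to the response element core (GAAA, any 2 bases, GAAA) on either strand in capitals. Rsad2 (chr12:26456453-26456602, minus strand) has 1 match, which starts 120 bases before the start; Oas3 (chr5:120777660-120777809, minus strand) has 1, 75 bases before; and Ifit1 (chr19:34640739-34640888, plus strand) has 2, 104 and 85 bases before.
Rsad2: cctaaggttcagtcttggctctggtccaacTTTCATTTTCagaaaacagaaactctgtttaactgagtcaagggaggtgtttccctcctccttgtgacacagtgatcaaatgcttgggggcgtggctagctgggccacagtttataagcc
Oas3: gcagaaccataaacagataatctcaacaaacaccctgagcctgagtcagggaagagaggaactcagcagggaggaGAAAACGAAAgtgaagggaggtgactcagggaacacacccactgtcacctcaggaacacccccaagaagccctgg
Ifit1: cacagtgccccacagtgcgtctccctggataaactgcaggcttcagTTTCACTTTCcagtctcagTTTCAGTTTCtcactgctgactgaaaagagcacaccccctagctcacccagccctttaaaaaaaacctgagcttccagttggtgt
The motif stood in 14 of the 28 members with a promoter in the table (50%), against 430 of 11699 tested genes with one (3.68%), counted over windows from 250 bases before to 50 after the start. A match describes letters only and does not show binding.

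Rsad2, which encodes viperin, an enzyme that makes a chain-terminating nucleotide (chromosome 12, 26442743 to 26456452), stood at 19.7, 26.7 and 43.8 CPM in Recql KO, against 0.644, 0.264 and 0.187 CPM in Blm KO. Its log2 fold change was 6.35 ± 1.01 (adjusted p = 0.00104, edgeR). Oas3, an oligoadenylate synthetase that senses double-stranded RNA, stood at 3.63, 7.54 and 5.28 CPM in Recql KO, against 0.458, 0.633 and 0.358 CPM in Blm KO. Ifit1, whose protein binds foreign RNA ends, stood at 156, 166 and 219 CPM in Recql KO, against 6.71, 4.69 and 4.89 CPM in Blm KO, a log2 fold change of 5.05 ± 1.34 (adjusted p = 0.0130, edgeR). For each of these genes the lowest Recql KO library was above the highest Blm KO library. Sp100, of nuclear bodies, had a log2 fold change of 6.72 ± 1.19, Oasl1 of 5.45 ± 1.04 and Cmpk2 of 3.69 ± 0.73. Ifit2 differed least of the 41, at 1.22 ± 0.18.

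The groups outside the comparison bear on the error of these genes. The sum of the list was 2341, 509 and 407 CPM in the 3 double KO libraries and averaged 736 CPM in WT, so that double KO replicate 1 stood at the Recql KO level and widened the shared estimate of spread. Fitted on the 6 libraries alone, all 41 members were called. Without Blm KO replicate 3, Ifit1 missed the threshold (adjusted p = 0.0511, edgeR, with 0.000109 to 0.184 over the alternatives that gave a value). In the Y-high pair all 41 members were higher in Recql KO, with a median of 2.93 and 9 called. Among the Y-low libraries, which include double KO replicate 1, all 41 were again higher, with a median of 3.85 and 0 called.

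Members of the Ifi200 cluster and of the 2 interferon-inducible GTPase families moved with them. The Ifi200 proteins carry DNA-binding HIN domains, and the GTPases act on the vacuoles of intracellular pathogens. Of 24 members tested, 21 rose and 2 fell, with a median log2 fold change of 4.24, or 3.93 with a member at 0 in Blm KO set to its bound. Mnda stood at 105, 116 and 120 CPM in Recql KO, against 6.76, 4.08 and 4.60 CPM in Blm KO. Ifi205 had a log2 fold change of 6.52 ± 0.90 (adjusted p = 0.000531, edgeR) and the GTPase Tgtp1 of 5.20 ± 0.86 (adjusted p = 0.00130, edgeR). The members that fell were Ifi202b and Gbp2b, described above. These genes lie in arrays of close copies, so that reads may be shared among them.

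MHC class I genes, which present peptides to T cells, shared the direction. Of 17 members tested, 15 rose and 0 fell, with a median log2 fold change of 2.07. B2m, the light chain, stood at 2282, 1932 and 2068 CPM in Recql KO, against 358, 372 and 370 CPM in Blm KO (2.51 ± 0.39, adjusted p = 0.000963, edgeR). The heavy chain H2-K1 stood at 243, 293 and 362 CPM in Recql KO, against 19.3, 28.6 and 22.5 CPM in Blm KO (3.67 ± 0.46, adjusted p = 0.000316, edgeR). The Blm KO libraries held these genes at a narrow level, far under every Recql KO library. H2-D1, H2-Q4 and H2-T22 rose by 3.27, 3.36 and 2.07 on the log2 scale, with sequence shared among the heavy chains. All 17 members were higher in Recql KO in the Y-high pair (8 called) and in the Y-low libraries (0 called).

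Secreted inflammatory genes, many of them targets of the factor NF-kB, formed the other large group higher in Recql KO. Of 30 members tested, 25 rose and 1 fell, and the median was 3.20. The cytokine Il6 stood at 23.8, 26.9 and 34.9 CPM in Recql KO, against 1.53, 3.44 and 1.98 CPM in Blm KO (3.62 ± 0.46, adjusted p = 0.000367, edgeR). Cxcl10, a chemokine that draws T cells, stood at 19.9, 25.4 and 48.6 CPM in Recql KO, against 0.356, 0.228 and 0.358 CPM in Blm KO (6.63 ± 0.92, adjusted p = 0.000541, edgeR). The prostaglandin synthase Ptgs2 and the macrophage growth factor Csf1 differed by less, 1.36 ± 0.18 and 1.34 ± 0.20, from high levels in both genotypes. Csf1 stood at 1661, 1466 and 1386 CPM in Recql KO, against 410, 752 and 620 CPM in Blm KO, and the groups stayed apart. The member that fell was Il1rn, the antagonist of the interleukin-1 receptor, named here after its value was seen, at 5.13, 1.93 and 15.8 CPM in Recql KO against 87.6, 83.6 and 153 CPM in Blm KO. In the Y-high pair 4 members of the list were called higher and in the Y-low libraries 14.

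Blood and macrophage markers were at low levels in both genotypes. Summed over the 12 members, they stood at 6.12, 7.25 and 9.99 CPM in Recql KO, against 12.2, 4.78 and 6.85 CPM in Blm KO. Ptprc, the pan-leukocyte marker, stood at 0.315, 0.361 and 0.840 CPM in Recql KO, against 0.186, 0.299 and 0.239 CPM in Blm KO, and Emr1 stood between 0.0205 and 0.0741 CPM in Recql KO and between 0 and 0.593 CPM in Blm KO. Of 9 members tested, 1 rose, Cd14, an endotoxin co-receptor, by 1.62 on the log2 scale, and 1 fell (22.2% called, against 40.2% of all genes). No member was called lower with any library left out except Blm KO replicate 2, with the replicate block or with no filter. The part of such cells in the interferon and inflammatory differences was not tested. In bulk samples, fewer cells of a type and less RNA per cell cannot be told apart.

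**Figure D2:**
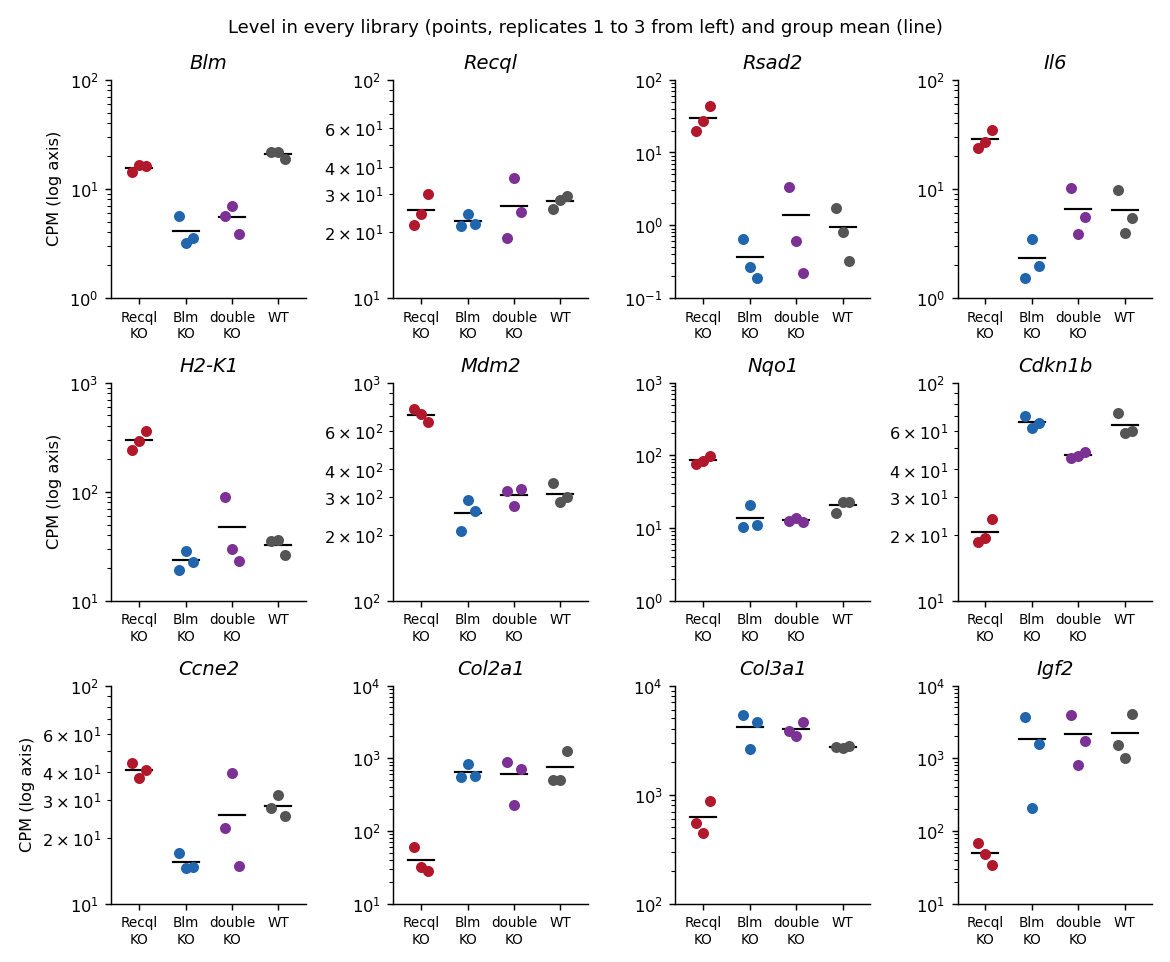
CPM on a log axis for 12 genes, with 1 panel per gene, 1 point per library in the order Recql KO, Blm KO, double KO and WT, and a line at each group's mean. For all panels but Recql, the Recql KO points (red) lie wholly above or below the Blm KO points (blue); for Rsad2, H2-K1, Il6 and Mdm2 they are above, and for Cdkn1b, Col2a1, Col3a1 and Igf2 below.

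The p53 arm differed as well. p53 is the factor that DNA damage stabilises, and it drives both the cell cycle inhibitor p21, made from Cdkn1a, and its own inhibitor Mdm2. Trp53 RNA itself stood at 99.4, 112 and 109 CPM in Recql KO, against 79.2, 74.6 and 80.5 CPM in Blm KO (0.45 ± 0.08, adjusted p = 0.00133, edgeR). Of 31 p53 targets tested, 12 rose and 2 fell, with a median of 0.26. Mdm2 (chromosome 10, 117688875 to 117710758) stood at 755, 717 and 659 CPM in Recql KO, against 210, 289 and 259 CPM in Blm KO (1.49 ± 0.13, adjusted p = 5.24e-05, edgeR). Its highest Blm KO library was well under its lowest Recql KO library. Cdkn1a stood at 708, 617 and 608 CPM in Recql KO, against 328, 449 and 438 CPM in Blm KO (0.67 ± 0.15, adjusted p = 0.00571, edgeR). Plk2 rose by 1.46, Pmaip1, the death-promoting Noxa, by 1.30, and the secreted stress cytokine Gdf15 by 2.23 on the log2 scale. The 12 that rose are 38.7% of the list, against 19.3% of all genes, while 17 members were not called. In either direction 45.2% of the list was called, against 40.2% of all genes.

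Among the 8 inhibitors of cyclin-dependent kinases, 1 rose and 4 fell (62.5% called, against 40.2% of all genes). Cdkn1b, which encodes p27 (chromosome 6, 134920401 to 134925525), stood at 18.5, 19.5 and 23.8 CPM in Recql KO, against 70.3, 61.9 and 65.2 CPM in Blm KO (-1.67 ± 0.11, adjusted p = 3.05e-05, edgeR). Cdkn2c, which encodes p18, stood at 4.22, 4.32 and 6.66 CPM in Recql KO, against 12.3, 11.4 and 12.8 CPM in Blm KO (-1.27 ± 0.17). The libraries of both genes fell into tight, separate groups, opposite in direction to Cdkn1a. Cdkn3, a phosphatase that acts on cyclin-dependent kinases, fell by 1.39. Cdkn1c, an imprinted gene that encodes p57, stood at 3.45, 5.28 and 5.45 CPM in Recql KO, against 26.3, 6.27 and 9.61 CPM in Blm KO (-1.57 ± 0.45, adjusted p = 0.0177, edgeR). Its call rests on single libraries, with an adjusted p of 0.0601 when Blm KO replicate 1 was left out and 0.0695 when Recql KO replicate 1 was, and of 0.00098 to 0.417 over all alternatives. Cdkn2a, the locus of p16 and Arf, whose RNA accumulates as fibroblasts age in culture, was not called, at 42.1, 41.7 and 40.6 CPM in Recql KO against 15.8, 36.04 and 27.2 CPM in Blm KO (0.65 ± 0.27, adjusted p = 0.0759, edgeR, with 0.0171 to 0.336 over the alternatives).

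Genes that carry cells into S phase were higher in Recql KO. Cyclin E and E2F factors open the S phase program, which loads and fires replication origins. Of 21 G1 cyclin, E2F and retinoblastoma family genes, 8 rose and 0 fell (38.1% called). Of all genes, 19.3% rose and 20.9% fell. Ccne1 stood at 45.1, 50.2 and 46.7 CPM in Recql KO, against 19.6, 21.8 and 21.3 CPM in Blm KO (1.18 ± 0.19, adjusted p = 0.00113, edgeR), and Ccne2 at 44.0, 37.8 and 41.2 CPM in Recql KO, against 17.1, 14.6 and 14.7 CPM in Blm KO (1.41 ± 0.28, adjusted p = 0.00307, edgeR). Neither cyclin E gene overlapped between the genotypes, nor did 57.2% of all genes. Cdk6 rose by 1.12 and E2f1 by 0.45.

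Of 42 genes of DNA replication and S phase, 23 rose (54.8%, against 19.3% of all genes) and 0 fell, with a median of 0.47. The list summed to 1596, 1742 and 1788 CPM in Recql KO, against 1335, 1158 and 1195 CPM in Blm KO, and it averaged 1751 CPM in WT. Orc1, the origin recognition subunit that licenses origins, stood at 8.84, 9.85 and 11.5 CPM in Recql KO, against 4.10, 4.31 and 4.09 CPM in Blm KO (1.27 ± 0.25, adjusted p = 0.00271, edgeR). Gins3, of the replicative helicase, rose by 0.98, Pole, the leading strand polymerase, by 0.86, and the primase subunit Prim2 by 0.69. Leaving out 1 library at a time gave 12 to 20 members called higher, with 12 without Blm KO replicate 3, 13 without Recql KO replicate 2 and 15 without Blm KO replicate 2 or Recql KO replicate 3. The Y-high pair had 29 of 42 members higher in Recql KO and 1 called, and the Y-low libraries 39 higher and 6 called.

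Mitotic genes did not follow. Of 34 genes of G2 and mitosis, none was called in either direction in the edgeR fit, where 40.2% of all genes were, and their median log2 fold change was 0.02. At an unadjusted p under 0.05 edgeR had 0 higher and 1 lower, and DESeq2 and the fit on the 6 libraries alone each called 1 of them lower. The fit without double KO called 3 lower. In the Y-high pair all 34 were lower in Recql KO, with a median of -0.36 and 1 called, while in the Y-low libraries 28 were higher, with a median of 0.28 and 0 called, so the median near 0 covers opposite values in the splits. The list summed to 1639, 1856 and 2141 CPM in Recql KO, against 2169, 1816 and 1755 CPM in Blm KO, overlapping ranges that both lie under the mean of WT, 3140 CPM. Mki67, a proliferation marker, stood at 212, 217 and 238 CPM in Recql KO, against 269, 191 and 193 CPM in Blm KO (0.03 ± 0.26, adjusted p = 0.937, edgeR). Top2a, a topoisomerase that decatenates chromosomes, stood at 169, 216 and 259 CPM in Recql KO, against 248, 173 and 179 CPM in Blm KO (0.10 ± 0.23, adjusted p = 0.750, edgeR). A called difference in S phase genes thus stood beside 0 calls in mitotic genes, and the difference between the lists was not tested.

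**Figure D3:**
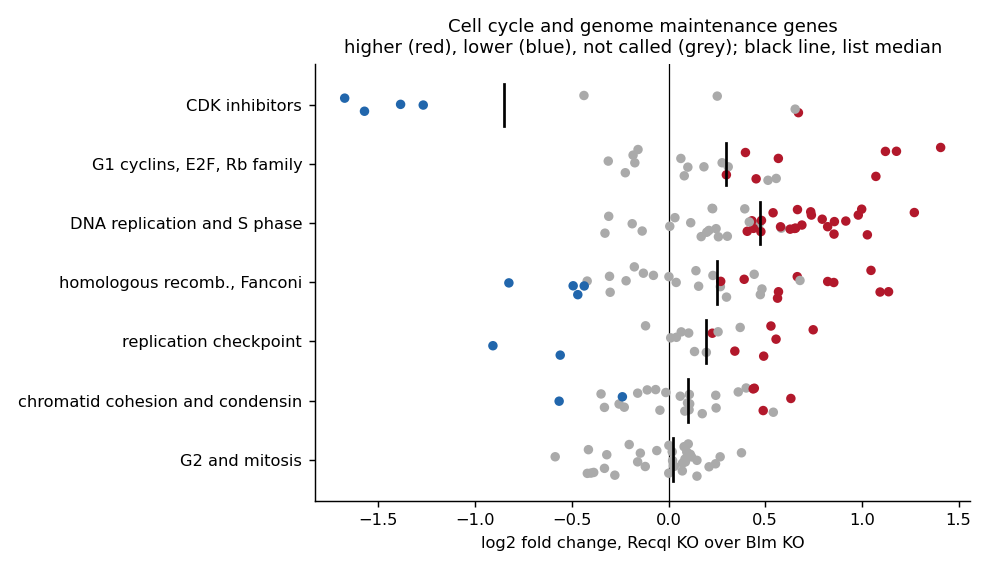
Log2 fold change of Recql KO over Blm KO (x axis) for the tested members of 7 cell cycle and genome maintenance lists, 1 point per gene, with red for called higher, blue for called lower, grey for not called and a black line at each median. S phase genes lie mostly right of 0 with a median of 0.47, CDK inhibitors fall on both sides with a median of -0.85, and the 34 G2 and mitosis genes cluster around 0 with no call.

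Fork repair and checkpoint lists were called in either direction at 43.8% to 52.9%, against 40.2% of all genes. More members rose than fell in each, where 19.3% of all genes rose and 20.9% fell. The RecQ list held 17 genes, the helicases and proteins that bind them, of which 7, including the targeted Blm, rose and 2 fell (52.9% called, against 40.2% of all genes). Besides Blm, the single-strand binding subunit Rpa1 rose, at 131, 145 and 145 CPM in Recql KO against 80.7, 100.9 and 90.8 CPM in Blm KO (0.63 ± 0.14, adjusted p = 0.00527, edgeR). Wrn, the helicase of Werner syndrome, fell, at 28.9, 30.4 and 28.6 CPM in Recql KO against 42.8, 39.1 and 37.1 CPM in Blm KO (-0.44 ± 0.09, adjusted p = 0.00279, edgeR). The libraries of each gene were apart by genotype, with small differences. Top3a, the topoisomerase partner of BLM, had a log2 fold change of 0.15 and was not called. Of the 17, 2 were called higher without Blm KO replicate 3 and 4 without Recql KO replicate 2 or 3.

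The 32 genes of homologous recombination and of the Fanconi anemia pathway counted 10 that rose and 4 that fell (43.8%, near the 40.2% of all genes), with a median of 0.25. Brca1 stood at 27.6, 33.2 and 34.8 CPM in Recql KO, against 16.9, 12.7 and 13.9 CPM in Blm KO (1.14 ± 0.23, adjusted p = 0.00325, edgeR). Brca2, a breast cancer gene of recombination repair, rose by 1.05, and Brip1, the helicase that binds BRCA1, by 1.09. Rad50, of the complex that senses double-strand breaks, rose by 0.67, and Fancf fell by 0.83. Within the Y-high pair 0 of the 32 were called, with 15 higher in Recql KO and a median of -0.04, and within the Y-low libraries 2 were, with 24 higher and a median of 0.48. In place of the 4 calls lower there was 1 without Blm KO replicate 1 or 3 or Recql KO replicate 2, and there were 2 without Recql KO replicate 1 or 3.

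Of 17 replication checkpoint genes 6 rose and 2 fell (47.1%, against 40.2% of all genes). The kinase Atm stood at 85.1, 84.1 and 80.1 CPM in Recql KO, against 57.1, 58.5 and 53.9 CPM in Blm KO (0.56 ± 0.08, adjusted p = 0.000468, edgeR), and Topbp1, an activator of the kinase ATR, rose by 0.75. Cdc25b, a phosphatase that starts mitosis, fell by 0.91. Without Blm KO replicate 3 or Recql KO replicate 2, 3 of the list were called higher. Chromatid cohesion is a process named in the study's title. Of 27 cohesin and condensin genes tested, 4 rose and 2 fell (22.2%, against 40.2% of all genes), and the median was 0.10. Hdac8, which recycles cohesin, stood at 8.19, 8.40 and 9.40 CPM in Recql KO, against 13.9, 11.6 and 13.0 CPM in Blm KO (-0.57 ± 0.12, adjusted p = 0.00352, edgeR). Leaving out 1 library at a time gave 0 to 3 of these genes called higher, with 0 without Blm KO replicate 3 or either of Recql KO replicates 2 and 3, 1 without Blm KO replicate 2 and 2 without Blm KO replicate 1.

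Antioxidant genes driven by NRF2 were higher in Recql KO. NRF2 binds antioxidant response elements and switches on enzymes for glutathione synthesis, quinone detoxification and NADPH supply. Of 25 members tested, 15 rose and 0 fell, with a median of 0.85. Windows of 150 bases before the start are shown for 2 of them that hold the letters TGACNNNGC, an antioxidant response element core, on the strand opposite the gene, in capitals. The match of Gclm begins 134 bases before its start (chr3:122245407-122245556, plus strand). That of Txnrd1 begins 92 bases before 1 of its 3 annotated starts (chr10:82859056-82859205, plus strand), and its other windows held no match.
Gclm: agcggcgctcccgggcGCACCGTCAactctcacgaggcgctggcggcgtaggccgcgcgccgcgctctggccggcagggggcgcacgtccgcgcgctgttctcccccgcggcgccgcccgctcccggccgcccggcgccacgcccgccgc
Txnrd1: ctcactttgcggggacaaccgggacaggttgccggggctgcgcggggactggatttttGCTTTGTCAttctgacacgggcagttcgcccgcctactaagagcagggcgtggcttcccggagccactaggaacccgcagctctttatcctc
The core stood in 7 of 21 members with a promoter (33.3%), against 1964 of 11699 tested genes with one (16.8%), over the longer windows.

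Nqo1, the quinone reductase (chromosome 8, 107388225 to 107403205), stood at 76.0, 84.0 and 98.8 CPM in Recql KO, against 10.2, 20.5 and 10.9 CPM in Blm KO (2.64 ± 0.25, adjusted p = 9.48e-05, edgeR). Gclc and Gclm encode the subunits of the enzyme that limits glutathione synthesis. Gclm stood at 76.6, 63.7 and 58.4 CPM in Recql KO, against 24.3, 32.2 and 27.8 CPM in Blm KO (1.24 ± 0.13, adjusted p = 0.000113, edgeR). Thioredoxin reductase Txnrd1 stood at 365, 407 and 407 CPM in Recql KO, against 172, 217 and 207 CPM in Blm KO (0.98 ± 0.11, adjusted p = 0.000177, edgeR). None of these genes overlapped between genotypes, nor did 57.2% of all genes. Gclc rose by 1.36, sulfiredoxin Srxn1 by 1.24 and the pentose phosphate enzyme Taldo1 by 1.01. The Y-high pair had 9 members called higher and 0 lower, and the Y-low libraries 6 and 0.

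Other stress and metabolic lists were called at 12% to 43.8% in either direction, against 40.2% of all genes. Of all genes, 19.3% rose and 20.9% fell. Of 16 heat shock genes 6 rose and 1 fell, and the call lower was lost with any 1 of the 6 libraries left out, under RLE scaling, with the replicate block and with no filter. Hsp90aa1, the inducible HSP90, stood at 1430, 1398 and 1230 CPM in Recql KO, against 728, 864 and 749 CPM in Blm KO (0.79 ± 0.14, adjusted p = 0.00144, edgeR). Of 23 genes of ATF4 and amino acid stress, 3 rose and 7 fell, and the members moved apart, since Atf3 rose by 1.56 while the amino acid transporter Slc7a5 fell by 1.27 and the proline enzyme Pycr1 by 1.29. Of 20 ER chaperone genes, 1 rose and 5 fell, and Xbp1, a regulator of the unfolded protein response, stood at 69.9, 67.1 and 69.6 CPM in Recql KO, against 99.2, 97.2 and 98.1 CPM in Blm KO (-0.51 ± 0.08). Of 23 glycolysis and hypoxia genes, 9 rose and 1 fell, led by hexokinase Hk2, at 115, 126 and 130 CPM in Recql KO against 50.7, 38.7 and 41.1 CPM in Blm KO (1.51 ± 0.19, adjusted p = 0.000366, edgeR). The prolyl hydroxylase Egln3, a target of hypoxia-inducible factor, rose by 1.82. Cholesterol synthesis had 0 of 25 higher and 3 lower, and lysosomal genes 4 of 26 higher and 4 lower. With 1 library left out, glycolysis had 5 called higher without Blm KO replicate 3, ATF4 targets 1 without Blm KO replicate 1 or 2, cholesterol synthesis 1 lower without Blm KO replicate 2, and lysosomal genes 1 higher without Recql KO replicate 2 and 2 without replicate 1 of either genotype.

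**Figure D4:**
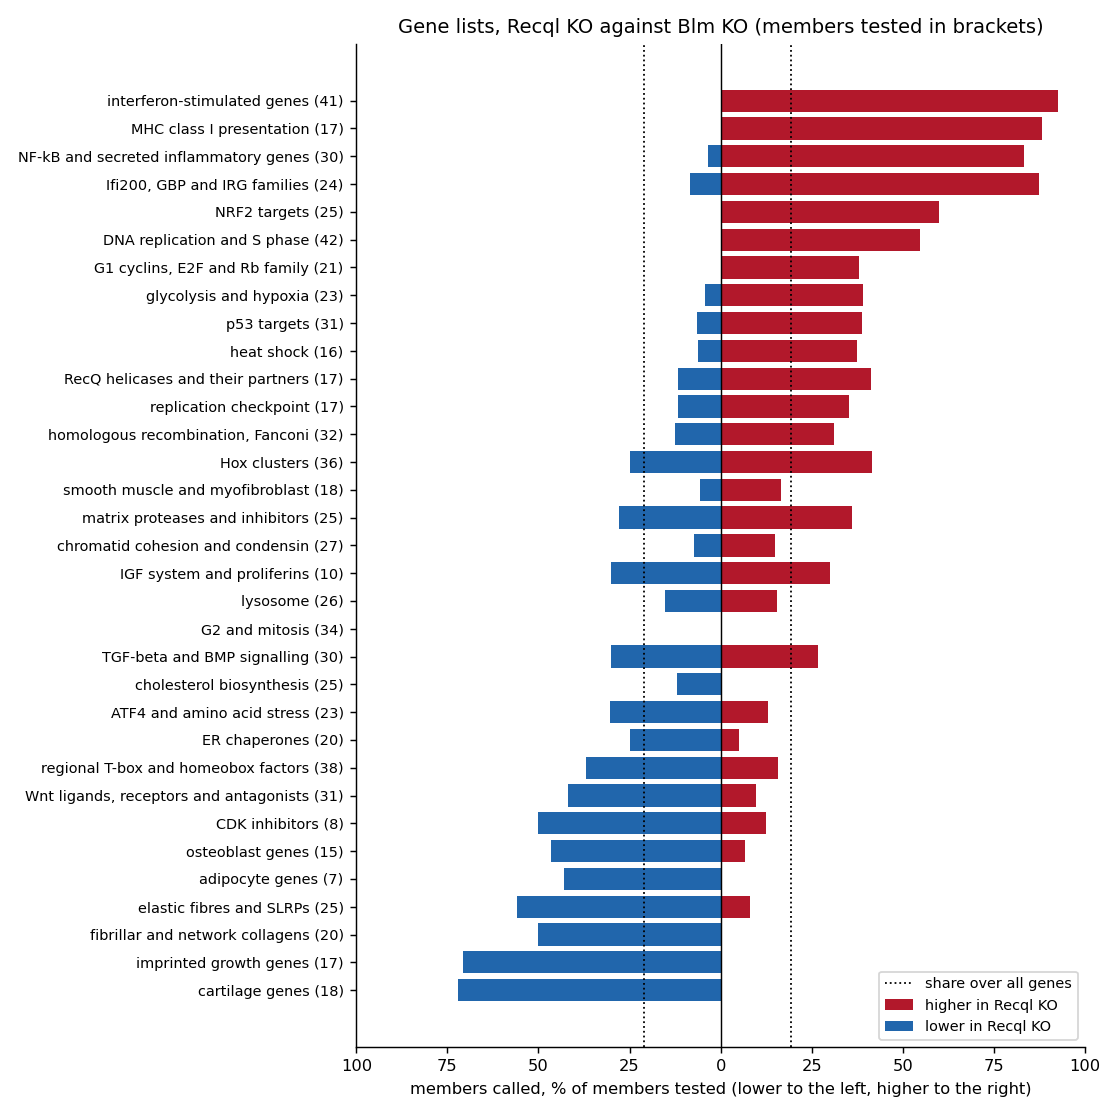
Members of 33 lists called in Recql KO against Blm KO, as a percentage of members tested (number in brackets), with those higher in Recql KO to the right (red) and those lower to the left (blue). Dotted lines mark the 19.3% and 20.9% of all genes called higher and lower. Interferon, MHC and inflammatory lists reach furthest right, and cartilage and imprinted genes furthest left.

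Structural genes of connective tissue were lower in Recql KO. Of 20 fibrillar and network collagens, 0 rose and 10 fell (50%, against 20.9% of all genes), with a median of -0.76. Col1a1, the main chain of bone and skin collagen, stood at 5595, 4554 and 6473 CPM in Recql KO, against 14958, 10700 and 13533 CPM in Blm KO (-1.24 ± 0.16, adjusted p = 0.000303, edgeR). Col3a1 (chromosome 1, 45311538 to 45349706) stood at 551, 449 and 875 CPM in Recql KO, against 5337, 2618 and 4641 CPM in Blm KO (-2.75 ± 0.30, adjusted p = 0.000151, edgeR). Both genes separated the genotypes, and Col1a2 fell by 1.61 and Col5a1 by 1.03. The Y-high pair had 7 of the 20 called lower and the Y-low libraries 0, with medians of -1.07 and -0.59.

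Elastic fibre genes and small leucine-rich proteoglycans, which space collagen fibrils, had 2 of 25 higher and 14 lower. This was 64% called, against 40.2% of all genes. Fbn2, a fibrillin of embryonic tissue, stood at 40.9, 39.8 and 39.0 CPM in Recql KO, against 592, 222 and 351 CPM in Blm KO (-3.28 ± 0.30, adjusted p = 7.64e-05, edgeR). Ogn and Aspn fell by 3.41 and 2.96. Decorin, Dcn, was one of the members that rose and is named after its value was seen, at 289, 144 and 206 CPM in Recql KO against 56.3, 9.65 and 32.7 CPM in Blm KO (2.69 ± 0.60, adjusted p = 0.00566, edgeR). The libraries of Dcn varied widely within each genotype without overlapping. Of 25 matrix proteases and inhibitors, 9 rose and 7 fell (64% called, against 40.2% of all genes). Serpinb2, an inhibitor of plasminogen activators, rose by 5.20 ± 0.44, while Mmp14, the membrane-bound collagenase, and Mmp2, which it activates, fell by 0.79 and 1.09. Without Blm KO replicate 1 or 3, 5 of the proteases and inhibitors were called higher.

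Cartilage genes were lower in Recql KO. Of 18 tested, 0 rose and 13 fell, with a median of -2.90, and the list summed to 372, 291 and 353 CPM in Recql KO, against 1969, 2138 and 2123 CPM in Blm KO. Col2a1, the main collagen of cartilage (chromosome 15, 97975602 to 98004724), stood at 60.0, 31.5 and 28.6 CPM in Recql KO, against 547, 837 and 579 CPM in Blm KO (-4.03 ± 0.58, adjusted p = 0.000647, edgeR). Comp, which binds cartilage collagens, stood at 1.69, 0.534 and 1.90 CPM in Recql KO, against 52.0, 69.0 and 114 CPM in Blm KO (-5.85 ± 0.63, adjusted p = 0.000153, edgeR). Every Recql KO library was more than an order of magnitude below the Blm KO libraries for Comp. Col9a2 fell by 5.29, Matn3 by 3.49 and Col11a1 by 2.18. All 18 members were lower in the Y-high pair, 8 of them called, and 15 of 17 in the Y-low libraries, 5 called.

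Osteoblast genes had 1 of 15 higher and 7 lower (53.3% called, against 40.2% of all genes). The parathyroid hormone receptor Pth1r stood at 4.30, 4.22 and 6.74 CPM in Recql KO, against 31.1, 15.3 and 25.7 CPM in Blm KO (-2.24 ± 0.27, adjusted p = 0.000274, edgeR), and the homeobox genes Dlx5 and Msx1 fell by 2.74 and 4.86. Runx2, the master factor of bone, fell by 0.42. Of 18 smooth muscle and myofibroblast genes, 3 rose and 1 fell (22.2% called, against 40.2% of all genes). Ankrd1, a target of the mechanosensitive factor YAP, stood at 674, 520 and 360 CPM in Recql KO, against 21.5, 123 and 32.1 CPM in Blm KO (3.14 ± 0.61, adjusted p = 0.00292, edgeR). The Y-high pair had 16 of the 18 higher in Recql KO, with a median of 0.74, 6 called higher and 0 lower. The Y-low libraries had 12 of the 18 lower, with a median of -0.17, 0 called higher and 2 lower, and the difference between the splits was not tested. Leaving out 1 library at a time gave 1 to 8 of these 18 called higher, with 8 without Blm KO replicate 2 and 1 without Blm KO replicate 1 or 3 or Recql KO replicate 1. Of 7 adipocyte genes tested, 0 rose and 3 fell (42.9% called), among them the factor Cebpa, by 2.35.

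Hox genes split by cluster and by position within a cluster. Hox proteins set position along the body axis and, in the limb, from shoulder to digit, and fibroblasts keep the Hox code of the place they came from. Of 36 Hox genes tested, 15 rose and 9 fell (66.7% called, against 40.2% of all genes). Hoxb2 to Hoxb9 rose, as did Hoxa4, Hoxc13 and the tested members from Hoxc4 to Hoxc9. Of these, Hoxc8 missed the threshold without Blm KO replicate 3 (adjusted p = 0.0569, edgeR) and without Recql KO replicate 1 (adjusted p = 0.0693, edgeR). Hoxb7 stood at 27.1, 24.6 and 21.8 CPM in Recql KO, against 8.27, 6.84 and 8.28 CPM in Blm KO (1.65 ± 0.27, adjusted p = 0.00119, edgeR). The 9 genes that fell were all from groups 9 to 13 of the Hoxa and Hoxd clusters, which pattern the limb and the posterior body.

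Hoxd13 shows the posterior pattern in the single libraries and is named after its values were seen. It stood at 1.09, 8.43 and 29.5 CPM in Recql KO, against 155, 123 and 174 CPM in Blm KO (-3.54 ± 0.82, adjusted p = 0.00693, edgeR). Hoxd12 stood at 0.167, 0.809 and 3.21 CPM in Recql KO, against 26.9, 21.6 and 29.0 CPM in Blm KO (-4.23 ± 0.80, adjusted p = 0.00248, edgeR). Recql KO replicate 1 was lowest and replicate 3 highest for both genes, while the Blm KO libraries stayed within a narrow range. Hoxa13 and Hoxa10 fell by 3.14 and 2.22. Hox genes overlap antisense transcripts, and the strand setting of the counting is not given in the sources used here, so reads of either strand cannot be told apart.

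**Figure D5:**
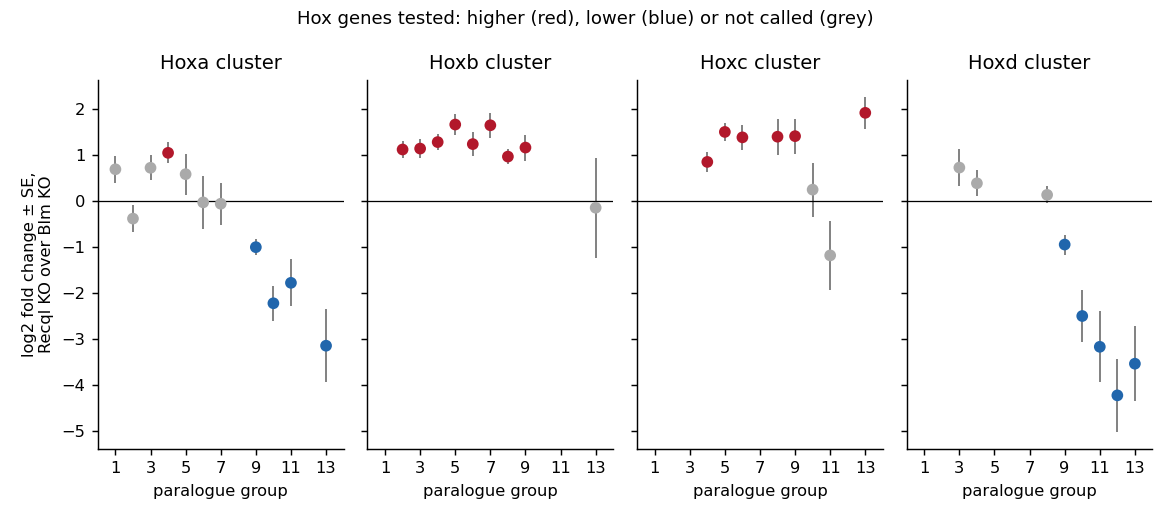
Log2 fold change of Recql KO over Blm KO with its SE (y axis) for 36 Hox genes by paralogue group (x axis), 1 panel per cluster, red for called higher, blue for called lower and grey for not called. Genes of groups 2 to 9 in the Hoxb cluster lie above 0, and Hoxa and Hoxd genes from group 9 upwards lie below it, down to -4.23 for Hoxd12.

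Other factors of regional identity moved both ways, with 6 of 38 higher and 14 lower (52.6% called). Of all genes, 19.3% rose and 20.9% fell. En1, which marks ventral limb and trunk dermis, stood at 51.1, 49.4 and 43.6 CPM in Recql KO, against 4.30, 2.58 and 2.25 CPM in Blm KO (3.98 ± 0.42, adjusted p = 0.000140, edgeR). Emx2, a homeobox factor of forebrain, urogenital tract and shoulder, stood at 37.2, 36.5 and 29.4 CPM in Recql KO, against 7.25, 6.61 and 3.73 CPM in Blm KO (2.55 ± 0.28). Irx3 stood at 3.69, 3.34 and 2.23 CPM in Recql KO, against 19.98, 12.8 and 17.8 CPM in Blm KO (-2.45 ± 0.36, adjusted p = 0.000748, edgeR). Each of these genes separated the genotypes, as did 57.2% of all genes. Tbx20, a cardiac T-box factor, and Tbx3 rose by 3.55 and 1.62, and Foxd1 fell by 2.21. The number called lower ranged from 8 to 18 when 1 library was left out, 8 without Recql KO replicate 2 and 9 without Blm KO replicate 1 or 3.

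Imprinted genes, expressed from 1 parental copy, mostly fell in Recql KO. Of 17 tested, 0 rose and 12 fell, with a median of -1.68. Mest (chromosome 6, 30733506 to 30748466) stood at 2.80, 2.44 and 4.03 CPM in Recql KO, against 290, 157 and 256 CPM in Blm KO (-6.25 ± 0.77, adjusted p = 0.000299, edgeR). The growth factor Igf2 (chromosome 7, 142650768 to 142666816) stood at 67.7, 48.6 and 34.4 CPM in Recql KO, against 3679, 208 and 1587 CPM in Blm KO (-5.18 ± 1.04, adjusted p = 0.00328, edgeR). H19, the untranslated RNA that shares its enhancers (chromosome 7, 142575530 to 142578146), stood at 50.3, 30.4 and 47.3 CPM in Recql KO, against 3496, 543 and 1824 CPM in Blm KO (-5.52 ± 0.89, adjusted p = 0.00114, edgeR). Blm KO replicate 2 was the lowest of its group for all of these genes, yet stayed above each Recql KO library. Peg10, Peg3 and Meg3 fell by 1.83, 1.72 and 0.89. Dlk1, at a log2 fold change of -1.71, was not called.

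Growth factor pathways showed losses and gains side by side. In the IGF list, Igfbp7 rose by 1.28, and Igf1 and Igfbp2 fell by 1.34 and 1.67. Of 30 TGF-beta and BMP genes, 8 rose and 9 fell (56.7% called, against 40.2% of all genes). The BMP antagonist Grem1 stood at 543, 488 and 645 CPM in Recql KO, against 129, 151 and 189 CPM in Blm KO (1.84 ± 0.17, adjusted p = 8.43e-05, edgeR). Another BMP antagonist, Chrdl1, went the other way, at 0.130, 0.241 and 0.881 CPM in Recql KO against 15.4, 8.14 and 13.4 CPM in Blm KO (-4.90 ± 0.57, adjusted p = 0.000212, edgeR). Inhba, the activin subunit, rose by 1.60, and the ligands Tgfb2 and Tgfb3 fell by 1.07 and 1.22. Without Blm KO replicate 3, 5 of the 30 were called higher.

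Of 31 Wnt ligands, receptors and antagonists, 3 rose and 13 fell (51.6% called, against 40.2% of all genes). Wnt16, a ligand of the skeleton and joints, stood at 2.09, 1.29 and 2.31 CPM in Recql KO, against 39.0, 17.9 and 41.6 CPM in Blm KO (-4.11 ± 0.46, adjusted p = 0.000186, edgeR). The receptors Fzd2 and Fzd5 fell by 1.07 and 1.42. Axin2, a feedback target of canonical Wnt signalling, stood at 0.612, 0.688 and 1.06 CPM in Recql KO, against 5.34, 2.50 and 2.96 CPM in Blm KO (-2.19 ± 0.37, adjusted p = 0.00132, edgeR). Wnt5a, a ligand of the non-canonical branch, rose, at 245, 218 and 226 CPM in Recql KO against 158, 114 and 137 CPM in Blm KO (0.75 ± 0.12, adjusted p = 0.00110, edgeR). Libraries did not overlap between the genotypes for these ligands and Axin2.

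Markers of cell types were examined for the make-up of the cultures. The 10 fibroblast markers were present in every library, and their sum, which includes collagens, was 26089, 21327 and 24075 CPM in Recql KO, against 49826, 45965 and 49097 CPM in Blm KO. Of these, 0 rose and 6 fell (60% called, against 40.2% of all genes), among them the intermediate filament gene Vim by 0.51. Thy1 and Pdgfra, surface markers, were not called, with log2 fold changes of 0.71 and -0.11. Of 11 epithelial and mesothelial markers tested, 0 rose and 2 fell (18.2% called, against 40.2% of all genes). Msln, the mesothelial surface protein, fell by 3.14. The sum of this list was 13.0, 22.6 and 19.2 CPM in Recql KO, against 50.4, 34.1 and 34.8 CPM in Blm KO.

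Neural markers had 3 of 11 higher and 2 lower (45.5% called, against 40.2% of all genes). Map2, a microtubule protein of dendrites, stood at 42.7, 23.3 and 32.3 CPM in Recql KO, against 213, 395 and 348 CPM in Blm KO (-3.28 ± 0.32, adjusted p = 9.94e-05, edgeR). Map2 held most of the sum of that list in Blm KO but not in Recql KO, where the sum was 150, 145 and 200.1 CPM, against 293, 453 and 443 CPM in Blm KO. Tubb3, a neuronal tubulin, went the other way, at 50.8, 56.6 and 55.0 CPM in Recql KO against 8.85, 11.3 and 7.33 CPM in Blm KO (2.57 ± 0.32, adjusted p = 0.000323, edgeR). Markers of endothelium had 1 of 9 higher and 2 lower (33.3% called, against 40.2% of all genes). With 1 library left out, 0 or 1 was called higher and 0 or 1 lower. Pecam1 stood between 0.310 and 0.369 CPM in Recql KO and between 0.237 and 0.369 CPM in Blm KO. Pericyte markers had 0 of 6 higher and 3 lower (50% called, against 40.2% of all genes). Among those lower were the potassium channel subunits Abcc9, by 4.41, and Kcnj8, by 4.04, and both genes also lie within 5 Mb of Recql. The pericyte sum overlapped between genotypes, at 402, 337 and 376 CPM in Recql KO against 327, 543 and 389 CPM in Blm KO. Muscle markers had 1 of 8 higher, Tnnt2 of cardiac muscle by 2.29, and 4 lower, among them Actc1 by 3.94 (62.5% called). The muscle sum was 108, 113 and 98.8 CPM in Recql KO, against 20.1, 77.5 and 31.5 CPM in Blm KO. The part of these cell types in the cartilage, matrix and Hox differences was not tested.

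Genes near the targeted loci were counted, since linked alleles travel with a deletion. Within 5 Mb of Blm, 72 genes were tested, of which 13 rose and 17 fell (41.7%, against 40.2% of all genes). Hddc3, which encodes a hydrolase (chromosome 7, 80343075 to 80346716), stood at 1.06, 1.31 and 1.33 CPM in Recql KO, against 9.37, 7.05 and 8.26 CPM in Blm KO (-2.74 ± 0.21, adjusted p = 4.41e-05, edgeR). Its mean was 7.78 CPM in double KO and 1.56 CPM in WT. The neighbouring Ngrn stood at 6.84, 6.90 and 6.29 CPM in Recql KO, against 15.2, 14.5 and 15.5 CPM in Blm KO (-1.17 ± 0.09, adjusted p = 4.70e-05, edgeR), with means of 13.4 CPM in double KO and 6.98 CPM in WT.

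Within 5 Mb of Recql, 41 genes were tested, of which 9 rose and 14 fell (56.1%, against 40.2% of all genes). Of the 15 within 2 Mb of Recql, 2 rose and 8 fell (66.7%), and of the 56 within 2 Mb of Blm, 8 rose and 14 fell (39.3%). At 5 to 10 Mb, 43.5% of 46 genes were called around Recql and 60% of 30 around Blm. Near Recql, C2cd5 and Ldhb fell by 1.07 and 0.89 on the log2 scale. Abcc9 and Kcnj8, named with the pericyte markers, also lie within 5 Mb of Recql and fell by 4.41 and 4.04. Itpr2, a calcium channel of the endoplasmic reticulum (chromosome 6, 146108299 to 146502258), stood at 73.1, 67.9 and 58.5 CPM in Recql KO, against 17.03, 28.1 and 18.4 CPM in Blm KO (1.65 ± 0.18, adjusted p = 0.000146, edgeR). Over whole chromosomes, the share of genes called ran from 34.1% on chromosome 8 to 43.7% on chromosome 1 among the autosomes, and on the X chromosome 62 of 514 genes rose and 143 fell (39.9%), with a median of -0.16. Calls were therefore spread over the genome. Whether flanking differences come from linked alleles or from the deletion was not tested.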

How the data were processed

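RNA was sequenced from 12 libraries of 4 genotypes with 3 libraries each, made from polyadenylated RNA with a stranded kit, per the labels' protocols. The authors deposited expected counts per gene, and the submitters' processing notes name Bowtie2 2.1.0, RSEM 1.2.15 and mm10. The strand setting is not given in the sources used here. The deposited expected counts were rounded, since 17.4 to 20.2% of them per library had decimals, and genes with low counts were removed with filterByExpr by group, which left 14876 of 24054. A model with 1 mean for each genotype was fitted over the 12 libraries with the quasi-likelihood test of edgeR 4.0.16 in R 4.3.3, on TMM scaling (factors 0.960 to 1.03), with 8 residual degrees of freedom. The contrast was Recql KO minus Blm KO, with Benjamini-Hochberg adjustment over all genes tested. SE is the absolute log2 fold change divided by the square root of F. Alternatives used DESeq2 1.42.0 and limma 3.58.1, other filters and scalings, Y-linked splits and leaving out 1 library at a time. The script was tested on simulated data.

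Named genes were Blm, Recql, Trp53, Cdkn1a and Cdkn2a, the 12 highest and 12 lowest called genes by log2 fold change with a mean of at least 1 CPM, a named symbol and no overlap, up to 6 called members of each list by adjusted p, and called genes within 5 Mb of either target. The text describes some of these. The 40 gene lists and the comparison were chosen with earlier results of these data known. Same-numbered libraries did not deviate together (r = -0.08, 0.07 and 0.17), so the numbers were not used as pairs. No pair of libraries within a genotype agreed within sampling noise. Intervals and floors cover counting error only.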

Additional observations from a re-analysis of the deposited data

Results flagged for a closer look

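Some results pointed one way in the pair of libraries high in Y-linked transcripts (Recql KO replicate 1 against Blm KO replicate 1) and the other way among the libraries low in them (Recql KO replicate 3 against Blm KO replicates 2 and 3). The difference between these splits was not tested, and the first holds 1 library a side. Of the 34 G2 and mitosis genes, 27 (79.4%) were lower in Recql KO in the Y-high pair and higher in every comparison of the Y-low libraries, against 1200 of 14876 genes tested (8.07%). The log2 ratio of Mki67 was -0.35 in the Y-high pair and 0.31 in the Y-low libraries, that of Top2a -0.56 and 0.56, and that of Pdgfra, a surface receptor of fibroblasts, -0.81 and 0.54. Top3a stood at -0.05 and 0.16. Smooth muscle and myofibroblast genes also leaned opposite ways, with 16 of 18 higher in Recql KO in the Y-high pair and 12 of 18 lower in the Y-low libraries.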

How the results depend on the processing

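The main count of 5985 called genes became 1405 among libraries high in Y-linked transcripts and 590 among those low in them, both with fewer libraries. Leaving out 1 library at a time gave 4200 to 5767 calls, lowest without Blm KO replicate 3. These held 69.4% to 86.0% of the main calls, again lowest without Blm KO replicate 3. With the replicate number as a block 6159 genes were called, although the numbers did not pair the libraries. DESeq2 called 6566 and no filter on low counts 5536, the highest and lowest of the other alternatives. Calls shared with the main count kept their direction in each alternative. Of 155 called genes printed, 152 kept their call with each library left out, and the exceptions were Ifit1, Cdkn1c and Hoxc8. Most of the 155 were picked by small adjusted p or as extremes without overlap, so this tally does not describe all calls. In the Y-high fit 93 of the 155 kept their call and in the Y-low fit 59. Uncalled values changed sign for some genes. Mki67 was at -0.36 in the Y-high fit and at -0.0503 to 0.22 with 1 library left out, below 0 without Blm KO replicate 2 or 3 or Recql KO replicate 3. Top2a was at -0.57 in the Y-high fit and at -0.0591 to 0.30 with 1 library left out, below 0 without Recql KO replicate 3, and Top3a at -0.063 in the Y-high fit. Pdgfra was at 0.0368 with limma-voom, 0.55 in the Y-low fit and -0.43 to 0.39 with 1 library left out, above 0 without Blm KO replicate 1. The cause was not tested. With 3 libraries a side, small differences may be missed.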
